A study of Mus musculus with 5 samples.

Results

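The sites described here are stretches of open chromatin at gene starts that were listed as DNase I-sensitive in naïve CD8+ T cells without Tcf1 and Lef1 (dKO) and not in wild-type (WT) cells. Members were chosen by peak calls in both lists, that is, by DNase-seq coverage itself. A member was an autosomal peak of the dKO list that shared no base with any deposited WT peak and whose summit, the base of highest coverage, lay within 1000 bp of an annotated transcript start on the mm9 mouse genome. The rule gave 520 members, out of 10610 autosomal dKO promoter sites, 25525 deposited dKO peaks and 56641 deposited peaks of both genotypes. Over all autosomal dKO peaks, 13.8% shared no base with a WT peak, and over autosomal dKO promoter sites 4.90% did. These shares are what the rule itself fixed.

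DNase-seq cuts accessible DNA with DNase I and sequences the short fragments released, so a pile of fragments marks DNA that is not wrapped tightly on nucleosomes. Active promoters are usually open just upstream of the transcript start, where CpG-rich DNA and general promoter factors such as NRF1, NF-Y and Sp/Klf proteins are common, whereas enhancers are more often AT-rich and bound by lineage factors such as Runx. Tcf1 (encoded by Tcf7) and Lef1 are HMG-box proteins that bind a shared DNA motif and maintain T cell identity.

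The study compared naïve CD8+ T cells from spleens of hCD2-Cre+ Rosa26GFP mice with either intact genes (Tcf7+/+Lef1+/+, WT, 3 replicates) or floxed ones (Tcf7 fl/fl Lef1 fl/fl, dKO, 2 replicates). Both groups carried the Cre and the GFP reporter. hCD2-Cre acts mostly in mature T cells and its excision is incomplete, so GFP+ TCRβ+ CD8+ cells with the CD62L+ CD44 low-to-medium naïve phenotype were sorted from C57BL/6-background mice of both sexes aged 6 to 12 weeks. The replicates of each genotype were pooled before peaks were called, so each value below belongs to 1 pool of cells. The variation among replicates cannot be seen in these lists, and the genotypes could not be tested against each other from them. The study itself tested accessible sites between genotypes with read counts of single replicates, and that test was not used here. A member is therefore not a site shown to differ between genotypes. Each interval in parentheses is a 95% Wilson interval, which reflects the number of sites counted and nothing else.

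The WT pool was the deeper one, with 83923734 fragments kept against 62242963 in the dKO pool, a ratio of 1.35. Of 9 fixed CD8 T cell markers, 9 had a WT and 8 a dKO promoter peak, and none of 5 B cell and none of 4 NK cell markers had one in either pool. Of the myeloid markers, Itgam alone had a peak, in the WT pool, and the name Spi1 had no match in the annotation. Of 5 effector CD8 genes, 3 had a promoter peak in the WT pool and 4 in the dKO pool. The pools also differed on the Y chromosome, where the dKO list held 3 promoter peaks, at Uty, Ddx3y and Eif2s3y, and the WT list 0, although it held 59 peaks elsewhere on that chromosome against 77 dKO peaks in all. The numbers of male and female mice in each pool are not given in the sources used here, and their part in the autosomal results was not tested.

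The most enriched members lay over 2 aldolase genes. Aldoart1 and Aldoart2 are intronless retrogene copies of Aldoa, the gene for the glycolytic enzyme aldolase A, and are known for expression in male germ cells. Their dKO peaks (Aldoart2 at chr12:56666314-56666444 and Aldoart1 at chr4:72512847-72513144, mm9) are printed in full because both lie inside the coding exon and match the spliced Aldoa transcript. The plus strand is shown, 5′ to 3′. The Aldoart2 letters read in the direction of that transcript, and the Aldoart1 letters are its reverse complement. Capitals mark bases that differ from the transcript, or from its reverse complement for Aldoart1.
Aldoart2: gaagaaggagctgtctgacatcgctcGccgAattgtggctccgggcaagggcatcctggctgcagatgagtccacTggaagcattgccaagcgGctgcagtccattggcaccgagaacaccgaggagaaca
Aldoart1: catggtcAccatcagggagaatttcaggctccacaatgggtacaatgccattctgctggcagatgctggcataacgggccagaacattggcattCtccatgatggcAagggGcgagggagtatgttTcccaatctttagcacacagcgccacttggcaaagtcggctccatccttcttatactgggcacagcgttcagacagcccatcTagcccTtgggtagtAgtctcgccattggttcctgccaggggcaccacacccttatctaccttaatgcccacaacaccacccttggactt
The Aldoart2 peak matched 127 of its 131 bases to Aldoa (96.9% identity) and ran from Aldoa exon 2 into exon 3. The Aldoart1 peak matched 290 of 298 bases (97.3%) and ran across exons 3 to 6, without the introns that separate them in Aldoa itself.

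Fold enrichment, which divides the fragment coverage of a summit by that of its surroundings, was 21.38 at Aldoart2 and 21.16 at Aldoart1, above 99.5% and 99.4% of the dKO list. Pileup, which counts the fragments covering the summit, was 91 and 146. The nearest WT peak was 66012 bp from the first and 650482 bp from the second, the longest distance of any member. Aldoa on chromosome 7 was covered in both pools. The dKO list had 6 peaks over it, all in coding exons, with pileups of 341 to 576, and the WT list had 6, of which 4 were in coding exons, with pileups of 56 to 116 over all 6. The local background there was 47.2 to 48.9 fragments in the dKO pool and 14.8 to 18.2 in the deeper WT pool. A high dKO coverage of Aldoa exons thus accompanied the retrogene peaks, and its part in them was not tested. Whether fragments at these 2 sites came from open chromatin there or from other DNA with the spliced Aldoa sequence cannot be told apart, so their fold enrichments may not measure accessibility.

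The next strongest protein-coding members lay at genes with various roles. Gnas, which encodes the alpha subunit of the stimulatory G protein from an imprinted locus with several alternative starts, had an intronic dKO peak 233 bp wide with a fold enrichment of 14.56, and its nearest WT peak was 16337 bp away. Npc1, needed to export cholesterol from lysosomes, had one at 13.95 with a WT peak 470 bp away. Top1, which encodes DNA topoisomerase I, reached 13.02 at an internal start with the nearest WT peak 13643 bp away.

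Another 9 of the 15 strongest had fold enrichments between 9.55 and 12.55. Fam154a stood at 12.55, Klhdc9 at 10.92, Prss57, a serine protease of neutrophil granules, at 10.89, 1110008J03Rik at 10.18 and Pxn, which encodes the focal adhesion protein paxillin, at 10.12. Cd247 (the CD3 zeta chain of the T cell receptor complex) stood at 9.67, A430110L20Rik at 9.59, Soat2, an enzyme that esterifies cholesterol, at 9.58 and Ppp2r5c, a regulatory subunit of protein phosphatase 2A, at 9.55. Of all 15, 6 lay at genes with no WT peak within 1000 bp of any annotated start of the gene, and 5 were at most 110 bp wide.

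**Figure D1:**
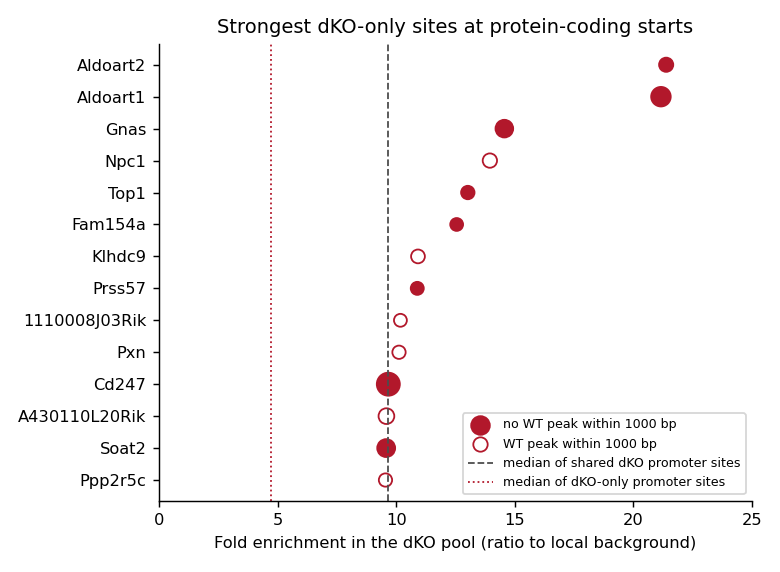
Fold enrichment in the dKO pool (x axis, ratio to local background) of 14 of the 15 strongest members at protein-coding starts; filled points have no WT peak within 1000 bp, open points have one, point area grows with peak width, and dashed and dotted lines give the medians of shared and dKO-only promoter sites. Aldoart2 and Aldoart1 stand at 21.38 and 21.16, apart from the other 12 shown, which lie between 9.55 and 14.56.

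Cd247 had the highest pileup of any member, 245 fragments over a peak 434 bp wide, yet a fold enrichment of 9.67. The background around it in the dKO pool, worked out from the pileup and the fold enrichment, was 24.4 fragments, against a median of 3.97 over all members and a floor of 3.22 set by the depth of the pool. Over the whole Cd247 gene the highest WT pileup was 84, at another position, and the background at WT peaks ran from 5.71 to 11.0. Trac, the constant segment of the T cell receptor alpha chain, had a pileup of 133 over a coding exon, a background of 12.5, a fold enrichment of 9.95 and a WT peak 1530 bp away. The background at that WT peak was 12.5 as well. At the members themselves the dKO background thus lay above the WT values at Cd247 and level with the WT value at Trac. These counts are not scaled to the deeper WT pool. Over the other dKO peaks of Trac the background ran from 14.6 to 16.6. Over those of Cd247 it was 23.9 and 23.8 downstream of the member and 4.04 to 8.42 at the rest. The percentiles by fold enrichment were 62.8 at Cd247 and 65.3 at Trac.

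Sequence under 5 more of the 15 strongest members is shown for motifs that were more frequent in members than in shared promoter sites. Each is on the plus strand of mm9, 5′ to 3′. In the first pair, 201 bp around the summits of 1110008J03Rik (chr5:121054936-121055136) and Cd247 (chr1:167788605-167788805), both intronic, capitals mark the CTCF core.
1110008J03Rik: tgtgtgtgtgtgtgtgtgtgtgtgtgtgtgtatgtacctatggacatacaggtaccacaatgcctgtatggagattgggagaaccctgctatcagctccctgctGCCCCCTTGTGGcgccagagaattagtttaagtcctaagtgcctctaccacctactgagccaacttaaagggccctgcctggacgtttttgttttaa
Cd247: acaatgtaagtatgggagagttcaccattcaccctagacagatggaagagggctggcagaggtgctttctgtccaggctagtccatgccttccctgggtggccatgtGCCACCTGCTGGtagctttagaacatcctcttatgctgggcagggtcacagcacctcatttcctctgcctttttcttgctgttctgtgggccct
In the next pair, 201 bp around the intronic summits of Gnas (chr2:174169730-174169930) and Fam154a (chr4:86183996-86184196), capitals mark the RUNX motif. The motif lies within 50 bp of the summit, the middle base, in Gnas. In Fam154a it lies more than 50 bp from the summit, beside a run of T, so it does not mark the summit of that site.
Gnas: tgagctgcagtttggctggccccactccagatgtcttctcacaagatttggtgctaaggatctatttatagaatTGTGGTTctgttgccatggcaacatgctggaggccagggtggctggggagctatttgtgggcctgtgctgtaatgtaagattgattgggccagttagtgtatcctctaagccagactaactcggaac
Fam154a: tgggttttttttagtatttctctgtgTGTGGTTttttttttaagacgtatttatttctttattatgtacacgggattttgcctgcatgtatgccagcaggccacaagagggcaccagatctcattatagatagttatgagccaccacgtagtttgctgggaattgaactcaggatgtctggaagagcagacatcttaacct
The last is the part of the Soat2 peak that lies upstream of the start (chr15:101980726-101980956), with a GATA motif in capitals.
Soat2: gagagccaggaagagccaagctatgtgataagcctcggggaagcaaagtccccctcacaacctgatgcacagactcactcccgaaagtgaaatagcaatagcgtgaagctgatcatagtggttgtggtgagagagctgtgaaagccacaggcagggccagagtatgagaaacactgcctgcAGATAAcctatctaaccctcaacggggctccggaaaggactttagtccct
A match of letters is a description and not evidence that the factor was bound.

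Most members were weak peaks. Their median fold enrichment was 4.74 (upper quartile 5.92), and their median pileup was 24.0 fragments, the highest being 245. Shared dKO promoter sites, the 10090 that shared at least 1 base with a WT peak, had a median fold enrichment of 9.66. The study counted a site as accessible only at a fold enrichment of at least 4 with FDR under 0.05, which 389 members (74.8%, 70.9 to 78.3) and 97.9% of shared sites met, so 131 members fall outside that definition. Within the dKO list the median member ranked at percentile 12.6, with 45 members above the middle of the list and 4 (Aldoart2, Aldoart1, Trbv13-3 and Gnas) in its upper 10%. The WT-only promoter sites found by the mirrored rule, 2467 or 20.0% of 12351 WT promoter sites, were similarly weak in their own list (median percentile 18.3).

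The share of dKO promoter sites without a WT peak fell steeply with strength. When the 10610 sites were split into 10 groups of 1061 by fold enrichment, 26.8% (24.2 to 29.5) of the weakest group, with fold enrichments up to 4.89, were dKO-only. The next group held 10.3% (8.59 to 12.2), the third 4.62% and the strongest group 0.283% (0.0962 to 0.828), which is 3 sites. Scaled to the depth of the WT pool, 453 members (87.1%) had pileups at or above 23 fragments, the mark below which the lowest 5% of WT peaks lay. A smaller number, 78 (15%), reached 3 times the lowest WT pileup of 16 on that scale. Chromatin open in fewer cells and chromatin less open in each cell cannot be told apart in pooled cells.

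**Figure D2:**
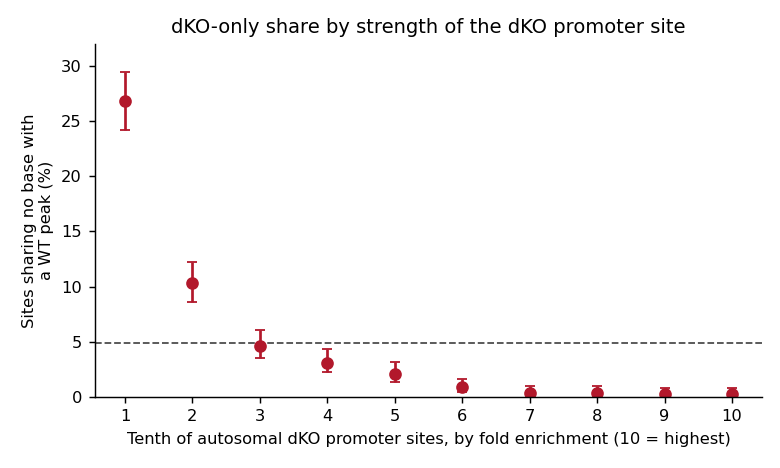
Share of autosomal dKO promoter sites that share no base with a WT peak (y axis, percent) in 10 groups of 1061 sites ordered by fold enrichment (x axis, 10 is the highest); points are shares, bars 95% Wilson intervals and the dashed line the share over all sites. The share fell from 26.8% in the weakest group to 0.283% in the strongest.

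More than 50% of members lay near a WT peak. One lay within 1000 bp of 292 members (56.2%, 51.9 to 60.4), and within 200 bp of 82. At 276 members (53.1%) a WT summit lay within 1000 bp of the same start. No WT peak lay within 1000 bp of the remaining 228 members (43.8%, 39.6 to 48.1), and 89 (17.1%) none within 10000 bp. In 169 members (32.5%) the gene had no WT peak at any annotated start, 161 of them among these 228. The dKO list had a second peak at the same start for 219 of the 292 members near a WT peak and for 6 of the 228 others. The share without a WT peak within 1000 bp rested on the thresholds of the lists, and was 57.7% with q under 1e-10, 69.5% in the 20000 best peaks of each list and 77.3% at fold enrichments of at least 8.

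At the edge of the rule, Aven, Celf1 and Dusp11 lay 4, 12 and 15 bp from a WT peak, with fold enrichments of 3.74, 3.66 and 3.40. Just outside it, the dKO peaks of Rel and Tm9sf3 shared 2 and 3 bases with a WT peak, at 3.55 and 3.87. The sites named on either side of this limit were thus alike in strength. Farthest from any WT peak after Aldoart1 were Rgs18, a regulator of G protein signalling, at 368213 bp, and Lrrc49, at 170703 bp, both weak (3.79 and 4.02). On the other limit, Gm16912, 2010305A19Rik and Grasp had summits 999, 996 and 986 bp from a start, and the dKO-only sites near Gadd45g, Cnga1 and Gm16046 fell just outside at 1006, 1017 and 1019 bp.

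Within the window of 1000 bp, which the rule set, members sat farther from the start than shared sites. The median distance from summit to start was 339.5 bp for members and 68.0 bp for shared sites, and 23.5% (20.0 to 27.3) of members against 61.6% (60.6 to 62.5) of shared sites had the summit within 100 bp of the start. Upstream summits made up 53.1% (48.8 to 57.3) of members and 73.8% of shared sites. Introns held 49.0% (44.8 to 53.3) of the members' summits and 21.0% (20.2 to 21.8) of those of shared sites. Coding exons held 5.96% (4.23 to 8.34) and 2.46%, and 5′ UTRs 8.85% and 19.7%. WT-only promoter sites lay between members and shared sites in median distance (199 bp). The same held for summits within 100 bp of the start (38.3%, 36.4 to 40.3) and in introns (39.7%, 37.8 to 41.7). Their shares upstream (54.7%, 52.7 to 56.6) and in coding exons (6.69%, 5.77 to 7.74) had intervals that overlapped those of members.

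At like strength the difference in position was smaller but still beyond counting error. Up to a fold enrichment of 4.20, 20.1% (14.8 to 26.7) of members and 37.0% (31.9 to 42.4) of shared sites had the summit within 100 bp of the start, and between 4.20 and 5.33 these were 26.6% (20.6 to 33.6) and 43.6% (40.3 to 47.0). Above 5.33 they were 23.7% (18 to 30.6) and 64.2%, but there shared sites were the stronger, with a median fold enrichment of 10.4 against 6.94. Members without a WT peak within 1000 bp lay nearer, at a median of 239 bp, than those beside a WT peak, at 402 bp. A start counted as a gene's first if it lay within 100 bp of the most upstream start of that gene. Such a start was the nearest for 65.0% (60.8 to 69.0) of members, 79.1% of shared sites and 64.2% (62.3 to 66.1) of WT-only sites. On this measure too the intervals of members and WT-only sites overlapped.

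**Figure D3:**
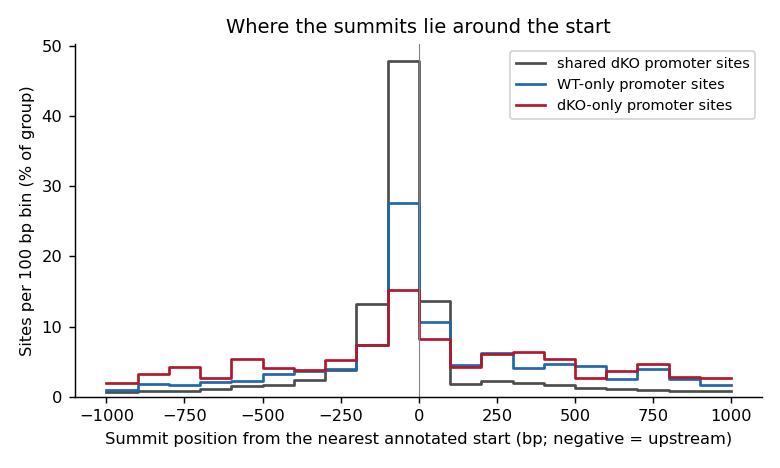
Position of the summit from the nearest annotated start (x axis, bp, negative is upstream) as the share of each group per 100 bp bin (y axis, percent), for members, shared dKO promoter sites and WT-only promoter sites. Shared sites peak sharply just upstream of the start, while members put 15.2% of their summits in the 100 bp upstream and spread over the rest of the window. WT-only sites put 27.6% of theirs in those 100 bp.

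Members were narrow, the strong ones included. Their median width was 128 bp against 231 bp for shared sites, and 160 (30.8%, 27.0 to 34.9) were at most 110 bp wide. The narrowest peak was 97 bp in the dKO list and 98 bp in the WT list, equal to the fragment size of each pool, and a shorter stretch is in neither list. Of 49 members with a fold enrichment of at least 8, 22 were at most 110 bp wide. Between fold enrichments of 8 and 12 this was 51.3% (36.2 to 66.1) of 39 members, 2.63% (2.14 to 3.23) of 3349 shared sites, 23% (17.9 to 29.1) of WT-only promoter sites and 40.4% (36 to 45) of the dKO-only sites far from any start. Widths near the shortest possible were thus shared by dKO-only sites near and far from starts. Whether WT signal of similar height but under 98 bp wide lay at the narrow members was not tested. The 360 members wider than 110 bp had a median percentile of 13.2 in the dKO list and 50.3% of their summits in introns.

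**Figure D4:**
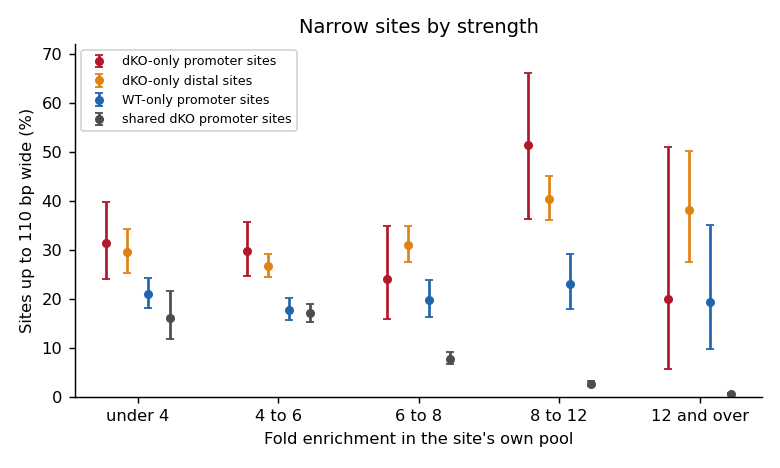
Share of sites at most 110 bp wide (y axis, percent) by fold enrichment in the site's own pool (x axis, 5 ranges) for 4 groups of sites, with 95% Wilson intervals. Shared sites fall from 16.0% to 0.472% with rising strength, while members stay at 20.0% or more in every range.

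The DNA under the members was less like a CpG island than that of other promoter sites. Over 201 bp around the summit, median GC content was 51.7% for members, 62.2% for shared sites, 60.7% for WT-only promoter sites and 46.8% for the 2903 dKO-only sites more than 1000 bp from a start. CpG-rich windows, with GC of at least 50% and an observed-to-expected CpG ratio of at least 0.6, made up 27.7% (24.0 to 31.7) of members, 72.5% of shared sites, 54.4% (52.4 to 56.4) of WT-only sites and 1.76% of the distal ones. Members thus fell between promoter and distal sites. The difference from shared sites was wider among strong sites, with 19.7% (14.4 to 26.2) of the 173 strongest members and 74.6% of shared sites of that range CpG-rich, than among sites with fold enrichments up to 4.20 (35.6%, 28.9 to 43.0, and 53.4%, 48.0 to 58.8).

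Several motifs differed in frequency between members and shared sites. Each motif was searched on both strands within 100 bp of the summit. The RUNX motif TGTGGTT lay at 64 members (12.3%, 9.76 to 15.4), 3.97% (3.61 to 4.37) of shared sites, 4.38% of WT-only promoter sites and 16.5% (15.2 to 17.9) of dKO-only distal sites, and in 3.16% of windows of that length at all 82144 annotated autosomal starts. The GATA motif AGATAA lay at 10.6% (8.22 to 13.5) of members and 3.10% of shared sites (6.17% of starts). The AP-1 motif TGANTCA was found at 7.12% and 3.43% (4.21% of starts), and the TATA box TATAAA at 8.85% and 3.33% (7.27% of starts).

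Base composition moves with these counts. Among sites with 45% to 55% GC, RUNX lay at 15.9% (11.7 to 21.3) of 226 members and 8.04% (6.93 to 9.31) of 2014 shared sites, and GATA at 11.9% (8.34 to 16.8) and 6.06% (5.10 to 7.19), so both differed by more than counting error. The intervals overlapped for AP-1, at 9.29% (6.16 to 13.8) and 6.65% (5.65 to 7.83), and for the TATA box, at 9.29% (6.16 to 13.8) and 5.86% (4.91 to 6.97). Strength moves with them as well. Between fold enrichments of 4.20 and 5.33 RUNX lay at 13.9% (9.50 to 19.8) of members and 6.06% (4.64 to 7.89) of shared sites and GATA at 9.83% (6.23 to 15.2) and 4.4% (3.21 to 6.01), while up to 4.20 the intervals of both motifs overlapped.

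The CTCF core, part of the motif of the insulator protein CTCF, lay at 23 members (4.42%, 2.97 to 6.55), 2.22% (1.95 to 2.53) of shared sites and 6.72% of dKO-only distal sites, and at 0.632% of annotated starts. Within 45% to 55% GC the intervals overlapped (4.87%, 2.74 to 8.50, and 3.43%, 2.72 to 4.31). The core was more frequent among the stronger and the isolated members. Of those 23, 16 had a fold enrichment above 5.33, where 9.25% (5.77 to 14.5) of members and 2.40% (2.1 to 2.74) of shared sites held it. It lay at 18 of the 228 members without a WT peak within 1000 bp (7.89%, 5.05 to 12.1) and at 5 of the 292 with one (1.71%, 0.734 to 3.95). Besides 1110008J03Rik and Cd247, the members with the core included Tgm2, a transglutaminase, and 11 of the 23 were at most 110 bp wide.

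Over all strengths, common promoter motifs were less frequent in members than in shared sites. The ETS motif CCGGAAGT lay at 5 members (0.962%, 0.411 to 2.23) and 8.04% of shared sites, the NRF1 motif at 1.54% and 10.7%, the Sp/Klf GC box GGGCGG at 24.0% and 55.1%, and the NF-Y motif CCAAT at 20.2% (17.0 to 23.9) and 33.8%. The CREB motif TGACGTCA lay at 0.769% and 3.90%. Within 45% to 55% GC the NF-Y motif lay at 18.6% (14.1 to 24.2) of members and 35.4% (33.3 to 37.5) of shared sites, the GC box at 10.2% (6.88 to 14.8) and 21.5% and ETS at 0.442% and 5.26%. At like strength most of these differences shrank. Between fold enrichments of 4.20 and 5.33 NF-Y lay at 20.8% (15.4 to 27.5) of members and 20.2% (17.6 to 23.1) of shared sites, its intervals overlapped in the weaker and stronger ranges too, and WT-only promoter sites stood at 19.3%. NRF1 had overlapping intervals up to 5.33 and ETS up to 4.20, whereas the GC box lay at 28.9% (22.7 to 36.1) of members and 48.4% (45 to 51.8) of shared sites between 4.20 and 5.33. In all annotated start windows these motifs were found at 3.11% (ETS), 3.43% (NRF1), 30.3% (GC box), 24.4% (NF-Y) and 1.34% (CREB). The E-box CAGCTG and the PU.1-type ETS, IRF, T-box, STAT and NF-kB motifs had overlapping intervals in members and shared sites.

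The motif of the deleted factors was not more frequent in members than in the other groups. The Tcf/Lef core ATCAAAG lay at 6 members (1.15%, 0.530 to 2.49), at Dhx57, Gm996, Gm16947, C530008M17Rik, Adprh and Enkur. It lay at 1.61% (1.38 to 1.87) of shared sites, 3.28% (2.65 to 4.06) of WT-only promoter sites, 2.31% of dKO-only distal sites and 1.96% of annotated starts. The interval of members overlapped that of shared sites and lay below that of WT-only promoter sites.

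**Figure D5:**
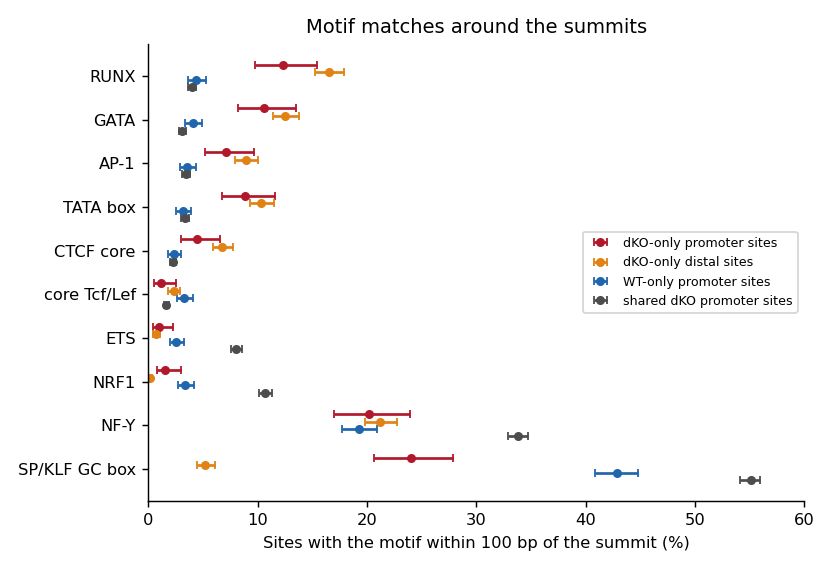
Share of sites with each motif within 100 bp of the summit (x axis, percent) for 10 motifs (y axis) in members, dKO-only distal sites, WT-only promoter sites and shared dKO promoter sites, with 95% Wilson intervals. RUNX lies at 12.3% of members, 16.5% of distal and 3.97% of shared sites and CTCF at 4.42%, 6.72% and 2.22%, with no matching of strength or base composition between groups.

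Genes on fixed immune lists, or on the study's lists of genes enriched in single leukocyte lineages in an outside expression atlas, accounted for 80 of the 520 members. The dKO promoter sites at all of these genes together were not counted, so shares are given by list. At genes enriched in non-T lineages (B cells, NK cells, granulocytes, monocytes and both kinds of dendritic cell), 48 of 630 dKO promoter sites were members (7.62%, 5.79 to 9.96), against 4.90% over all dKO promoter sites. Those genes had weaker sites to begin with, with a median percentile of 47.4 against 60.8 over all promoter sites. At fold enrichments above 5.33 the share was 3.98% (2.59 to 6.06) of 503 sites against 1.90% of 9100, and below that it was within counting error of the rest. Above 5.33 the sites at non-T genes were still the weaker, at a median percentile of 57.9 against 67.6, so strength was not matched there. Genes enriched in T cell subsets gave 29 of 451 sites (6.43%, 4.51 to 9.08). By lineage the shares ran from 3.57% (0.985 to 12.1) for regulatory T cells to 13.8% (7.85 to 23) for plasmacytoid dendritic cells and 15.4% (6.15 to 33.5) for naïve CD8 T cells, where 4 sites were members (Plac8, Depdc1b, Nedd4 and Mcoln2). The lower ends of the intervals passed 4.90% for granulocyte, plasmacytoid dendritic cell and naïve CD8 T cell genes only.

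Of the 25 strongest members at a gene of any of these lists, 15 had no WT peak within 1000 bp. Among all members with fold enrichments above 5.33 the share was 55.5% (48.0 to 62.7). Besides Npc1, Prss57, Cd247 and Soat2 the 25 included Slc35e4 (9.23), Gpx8, a peroxidase of the endoplasmic reticulum (8.70), Grasp (8.52), Tfrc, the transferrin receptor (8.29), Tgm2 (8.29) and Mxi1, a Max-binding repressor (7.95). Plac8 followed at 7.68, with its summit 13 bp past the start in the 5′ UTR and its nearest WT peak 2242 bp away, within the gene. Next were 5830418P13Rik (7.61), the sialyltransferase gene St6gal1 (7.35), Acad12 (7.34), Socs3, an inhibitor of cytokine receptor signalling (6.68), and the elastase gene Cela1 (6.16). The last 9 ranged from 5.65 to 6.16 and were Ptges, a prostaglandin E synthase, the zinc transporter gene Slc39a14, Gng2, Unc119, the immediate-early factor gene Egr1, Gzma, Col15a1, Dram1 and Gm5134.

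Gzma, the gene of the cytotoxic granule protease granzyme A, had peaks in the dKO list alone. The stronger was 275 bp wide with its summit in a coding exon 53 bp past the start, a pileup of 27 and a fold enrichment of 5.72 (percentile 24.2), and the nearest WT peak was 12990 bp away. A second dKO peak near the gene, outside the promoter window, also had no WT counterpart, with a pileup of 19. The other member among 13 dKO promoter sites at cytotoxic granule and effector genes was at Prf1, which encodes perforin. It was a peak of 5.28, 563 bp upstream of the start and 254 bp from a promoter peak that both pools had, with fold enrichments of 12.70 in WT and 11.59 in dKO. Gzma and Prf1 thus differed in kind, a start with no WT peak in the first and an added flank in the second.

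Members at other immune lists were few, and those with fold enrichments under 5.65 were named after their values were seen. They were Tnf (3.59, 31 bp upstream of the start, 1220 bp from a WT peak inside the gene) and Tnfrsf26 among 17 sites at TNF ligands and receptors (11.8%, 3.29 to 34.3), and Cd2, Cdh1, Icam4 and Itgb3 among 23 at adhesion genes (17.4%, 6.98 to 37.1). Of the single immune lists, only that of adhesion genes had an interval above the 4.90% of all sites, and it rested on 4 members. Runx1, Runx2 and Satb1 made up 3 of 63 sites (4.76%) at T cell fate factors, with Runx2 at 5.07 and 34271 bp from a WT peak and the others within 504 bp of one. Signal dampers, which include Socs3, Socs6 and the STAT-induced inhibitor Cish, had 7 of 75 (9.33%, 4.59 to 18), interleukins and their receptors had 1 of 20 (Il3ra) and myeloid genes 1 of 9 (Clec12a). No member was found among 9 sites at chemokines and their receptors, 4 at NK cell receptors, 9 at inhibitory and costimulatory receptors, 16 at Wnt pathway genes, 3 at Hox genes or 77 at ribosomal protein genes. A count of 0 allows a share of up to 4.75% (Wilson) at ribosomal protein genes. At the other lists it allows up to 19.4% (Wnt pathway) to 56.1% (Hox), so little can be read from them. B cell genes had no dKO promoter site. Zinc finger genes (11 of 250, 4.4%) and histone genes (3 of 53, 5.66%) stood near the 4.90% of all sites.

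Antigen receptor segments made up a larger share of members than of other promoter sites. They were the nearest start for 18 members (3.46%, 2.2 to 5.41), 0.248% of shared sites and 0.608% (0.369 to 1) of WT-only promoter sites. Of these, 11 lay at T cell receptor segments, 9 of them in the alpha and delta locus on chromosome 14 and 1 each at Trbv13-3 and Tcrg-V3, and 7 in the immunoglobulin heavy chain locus on chromosome 12. Chromosome 14 had the highest share of members among its promoter sites, 9.09% (6.55 to 12.5), and the other autosomes ran from 3.04% to 6.05%. T cell receptor loci are cut and rejoined during T cell development, so their DNA in a mature T cell differs from the reference.

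The strongest of them, Trbv13-3 (chr6:41080295-41080560), had a fold enrichment of 19.02 and a pileup of 106 over its coding exon and the nearest WT peak 8305 bp away, and its window had 1 near-identical copy at 93.0% identity. It was also the strongest member at a gene not labelled protein-coding in the annotation. Gm5770, a V segment of the alpha and delta locus, followed at 14.22 with a WT peak 191 bp away. Gm16611 and Ighv11-2 of the heavy chain locus had peaks of 102 and 101 bp at 12.31 and 11.36, whose 201 bp windows each had 1 near-identical copy elsewhere in the genome at 95% identity. Upstream of joining segments of the alpha locus, Gm16671 and Gm16919 had peaks of 251 and 226 bp at 6.04 and 6.32, with the nearest WT peaks 37226 and 7332 bp away.

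Near-identical copies were more common at members than at shared sites. A copy was another place in mm9 that aligned with 80% or more of the 201 bp around the summit at an identity of 90% or higher. At least 1 was found for 33 members (6.35%, 4.55 to 8.78) and for 22 of 1009 sampled shared sites (2.18%, 1.44 to 3.28), and 12 of the 33 were antigen receptor segments. The segments included Trbv13-3 and Gm5770, and the others Aldoart1, Aldoart2, the zinc finger genes Zfp959, Zfp937 and Zfp442, Ifi204, Hist1h4j and Sfi1. Fragments of such windows can align to more than 1 place, which makes the values of these 33 uncertain.

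The members lay at 510 genes, and 10 gene names had more than 1 member. Sfi1 had 3, with pileups of 158 to 162 but fold enrichments of 1.5 to 1.70, the lowest of all, on backgrounds of 95.1 to 105 fragments. Genes with a pair were Ptges (6.16 and 4.26) and the phosphatase gene Ptpre (8.76 and 5.64, with WT peaks 4924 and 4600 bp away), Ppp5c (5.02 and 4.4), the interferon-induced GTPase gene Gbp2 (3.31 and 2.98), Prdm15, Synj2, Susd3, Gm16046 and 5S_rRNA, a name that separate genes share. Sites of 1 gene share their neighbourhood and are not independent.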

How the data were processed

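DNase-seq libraries of 3 WT and 2 dKO samples were aligned by the authors to mm9 with Bowtie2 2.2.5, filtered for mapping quality and duplicates and pooled by genotype. Peaks were called on each pool with MACS2 2.1.1 without a control library, at p of 1e-05 (the deposited lists also hold peaks under the study's further minimum of 4-fold enrichment) and with the local background taken over 10000 bp. Per the file headers, the coverage at each summit (pileup, a signal), the fold enrichment (a ratio to local background) and −log10 p and −log10 q were deposited by the authors for each peak, and the headers give 2.00 fragments read per fragment kept in both pools, whose command lines pass each alignment file and its sorted copy. The fragments kept, 83923734 in WT and 62242963 in dKO, set the depth. 0 columns were left unmapped.

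Peaks were overlapped, assigned to the nearest transcript start (GENCODE M1 on NCBIM37, the same build as mm9) and annotated with Python 3.11.15, pandas 2.3.3 and pysam 0.24.0. The sequences printed come from that genome. Copies were searched with blastn 2.17.0, and every 10th shared site was searched. Overlaps, distances, motif searches and Wilson intervals were checked on simulated data. Genes named were the 15 strongest protein-coding members, the 25 strongest on immune or lineage lists and genes with several members. Also named were the strongest at a gene not labelled protein-coding, a label that antigen receptor segments lack, and those nearest to and farthest from a WT peak. Others are named as members of a count or of a list, and a few items that these rules select are not reported here. Of 2277 lineage gene names, 2151 matched the annotation. The members, lists and motifs were chosen with earlier results of these data known. With 1 pool per genotype, no test between genotypes was run. Other thresholds on both lists, overlaps, distances and start sets were tried.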

Additional observations from a re-analysis of the deposited data

Results flagged for a closer look

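Outside the autosomes, which the rule keeps to, the X chromosome held 14 dKO promoter sites that shared no base with a WT peak, out of 286 (4.90%, 95% Wilson interval 2.94 to 8.05), and they were set aside as signal in data not used above. Their median fold-enrichment percentile was 17.3, and the strongest lay at Gm1720, Gm14950 and Prdx4. The share was equal to that on the autosomes, 4.90%.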

How the results depend on the processing

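No paired analysis was possible because each peak list comes from replicates that were pooled before calling, and leaving out a replicate was not possible for the same reason. The number of dKO-only promoter sites, 520, was 293 with q under 1e-10 in both lists and 343 with starts within 500 bp, and between 360 and 701 otherwise. The share of dKO promoter sites without a WT peak, 4.90%, became 5.62% at fold enrichments of at least 8, 3.16% with q under 1e-10, 7.79% in the 20000 best peaks of each list, 5.43% when shared meant 50% of the shorter peak, 3.63% within 500 bp, 4.44% for protein-coding starts and 3.63% for dKO peaks wider than 110 bp, an alternative chosen after seeing the data. The share of members more than 1000 bp from a WT peak, 43.8%, became 49.9% under the study's criteria, 77.3% at fold enrichments of at least 8, 57.7% with q under 1e-10, 69.5% in the 20000 best peaks and 39.6% with the 50% overlap. The median percentile, 12.6, was 15.6 at fold enrichments of at least 8. Median GC, 51.7%, was 55% there, 54.7% in the 20000 best peaks, 53.7% within 500 bp and 53.5% over 50 bp on each side. The share at a first start, 65.0%, was 58.3% for protein-coding starts. The share of members at non-T lineage genes, 9.23% (48 of 520), was 13.3% with q under 1e-10. Without that limit, 630 of all 10610 autosomal dKO promoter sites lay at those genes. The count over all sites was not made with q under 1e-10, so whether the rise was particular to members was not tested. The Tcf/Lef share, 1.15%, was 0.385% over 50 bp on each side. For values that moved, the cause was not tested. The lowest pileup listed was 16 fragments in WT and 13 in dKO, and the part of depth in the weak sites was not tested.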
